A study of Mus musculus with 6 samples.

Results

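Transcripts of 9 genes that mark the lumen and the successive regions of the epididymis were followed through RNA sequencing of white adipose tissue. The genes are Adam7, Adam28, Crisp1, Crisp4, Cst8, Cst11, Ros1, Rnase9 and Rnase10, taken by name from the 32759 genes of the table, and all 9 were found. They were picked because earlier results from these libraries had shown epididymal transcripts in a single library of the treated group. Their difference between the groups is therefore described and was not tested as a finding.

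Every mouse sample was of white adipose tissue and every mouse received a high-fat diet (HFD). The mice of 3 samples were given no THBru (HFD 1 to 3), and the other 3 samples came with tetrahydroberberrubine (THBru) treatment at 50 mg per kg per day (THBru 1 to 3). THBru is a small molecule that the study examined against obesity. The labels give neither the depot, the age, strain and sex of the mice, nor whether each sample was a separate animal, so any p-value measures the spread between these samples, which may be technical. Levels are CPM, a gene's count scaled to its library's total count, or FPKM, fragments scaled to transcript length and library size, where genes are compared with each other.

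The epididymis is the duct in which sperm leaving the testis mature. Its epithelium differs along its length, from the initial segment through the caput and corpus to the cauda, and each region secretes its own mix of proteases, protease inhibitors, lipocalins, defensins and other proteins into the lumen. In mice the initial segment depends on the receptor ROS1, which is activated by the ligand NELL2 arriving in the fluid from the testis, and epididymal secretion as a whole depends on androgen.

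In the share of adipocyte markers THBru 1 and THBru 3 stood apart from the other libraries, and in kidney markers THBru 2 did. Total counts per library were 67195085 to 76995679, so that 3 counts, the limit that a count of 0 allows, were 0.0390 to 0.0446 CPM. The 10 mature adipocyte markers (Adipoq, Plin1, Fabp4 and others) summed to 1.86 to 3.25% of counts in HFD, 0.405% in THBru 1, 2.13% in THBru 2 and 0.225% in THBru 3. None of these markers was at 0 in any library. These are shares of a library's counts, which high counts of other genes also lower. In bulk tissue, that effect, fewer cells of a type and less RNA per cell cannot be told apart. Secretory genes of the seminal vesicle, 8 in number, took 42.4% of counts in THBru 1 and at most 0.0897% elsewhere, and 6 kidney tubule genes took 0.103% in THBru 2 and at most 0.0108% elsewhere.

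Sequences around the start of 6 of the 9 genes (all but Adam7, Adam28 and Cst11) were matched in RefSeq (GRCm38.p6), each window running from 250 bases before to 50 bases after an annotated start. They are shown because the 9 genes were high in the same library and are genes of an androgen-dependent duct. The element searched was AGAACA, the arm that the androgen response element repeats as a palindrome, on both strands (TGTTCT on the other), and it is set in capitals. The 6 genes had 7 windows, since Rnase10 has 2 overlapping ones, of which the first is printed. The element occurred in 5 of the 7 windows, those of Crisp1, Crisp4, Rnase9 and both of Rnase10, against 19.0% of all 32851 windows. Counted by gene, 4 of the 6 had it. In Crisp1 and Rnase9 the match lay after the annotated start, at 20 and 24 bases, and in Crisp4 and Rnase10 before it. Both Rnase10 windows held the same 2 matches, in opposite orientations.
Crisp4, chr1:18145853-18146152, minus strand: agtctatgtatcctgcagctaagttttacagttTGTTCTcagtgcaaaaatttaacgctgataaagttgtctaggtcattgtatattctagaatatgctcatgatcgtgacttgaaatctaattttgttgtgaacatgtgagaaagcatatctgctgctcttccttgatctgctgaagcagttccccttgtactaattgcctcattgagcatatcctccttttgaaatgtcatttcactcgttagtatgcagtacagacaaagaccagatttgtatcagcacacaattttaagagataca
Rnase10, chr14:51007501-51007800, plus strand: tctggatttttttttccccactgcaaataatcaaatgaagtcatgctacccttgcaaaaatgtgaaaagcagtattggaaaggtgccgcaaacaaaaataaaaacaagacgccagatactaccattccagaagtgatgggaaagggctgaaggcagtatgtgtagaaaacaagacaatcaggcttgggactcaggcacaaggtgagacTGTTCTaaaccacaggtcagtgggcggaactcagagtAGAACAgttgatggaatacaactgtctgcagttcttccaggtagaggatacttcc
Rnase9, chr14:51041818-51042117, minus strand: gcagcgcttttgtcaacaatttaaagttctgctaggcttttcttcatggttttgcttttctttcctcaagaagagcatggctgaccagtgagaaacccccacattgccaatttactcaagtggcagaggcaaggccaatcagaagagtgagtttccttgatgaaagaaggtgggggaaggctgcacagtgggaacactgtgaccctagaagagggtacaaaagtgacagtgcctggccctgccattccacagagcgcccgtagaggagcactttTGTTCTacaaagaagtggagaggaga
Crisp1, chr17:40319158-40319457, minus strand: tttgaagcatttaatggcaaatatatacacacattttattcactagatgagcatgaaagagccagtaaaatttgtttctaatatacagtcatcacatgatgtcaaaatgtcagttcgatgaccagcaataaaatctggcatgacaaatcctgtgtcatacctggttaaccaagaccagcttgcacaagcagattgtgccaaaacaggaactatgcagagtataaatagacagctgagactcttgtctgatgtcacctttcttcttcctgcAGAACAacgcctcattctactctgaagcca
The full palindrome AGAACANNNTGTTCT was in none of the 7 windows and in 0.00913% of all windows. AGGAAG, a motif read by ETS factors of the PEA3 type such as Etv4 and Etv5, was found on either strand in 4 of the 7 windows, those of Ros1, Crisp1, Crisp4 and the second of Rnase10, which is not printed, and in 35.4% of all windows. A match describes these letters only and shows no binding.

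All 9 genes were high in THBru 3 and low in the other 5 libraries. Their summed level was 26.5, 27.6 and 30.0 CPM in HFD 1 to 3, 29.8 CPM in THBru 1, 42.0 CPM in THBru 2 and 22487 CPM in THBru 3. The sum made up 2.25% of the counts of THBru 3 (95% Wilson interval 2.245 to 2.252) and 0.00265 to 0.00420% in the other libraries. It lay 802-fold above the HFD mean in THBru 3, 1.06-fold in THBru 1 and 1.497-fold in THBru 2. Adam7 alone supplied 56.7% of the members' counts in THBru 3.

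In THBru 3, 9 of 9 members were over 8-fold above the HFD mean, as were 8.66% of the 16140 genes tested. All 9 were above every HFD library there, as were 45.3% of genes. In THBru 1 and THBru 2 no member was over 8-fold above the HFD mean, a fold reached by 3.3% and 4.86% of genes. A fold over 100 was reached by 9 of 9 members and by 3.45% of genes tested. Single members ranged from 553-fold (Crisp1) to 882-fold (Cst11). The edgeR quasi-likelihood test of THBru against HFD called 0 of 9 members at an adjusted p under 0.05, beside 0.118% of all genes called higher. At an unadjusted p under 0.05 all 9 were higher, beside 13.9% of genes, but the members were chosen on these values and the count supports nothing. DESeq2 gave no adjusted p for any member, and limma called 0. The fitted log2 fold changes were 7.45 to 8.13 with all libraries and −0.79 to 1.33 without THBru 3.

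**Figure D1:**
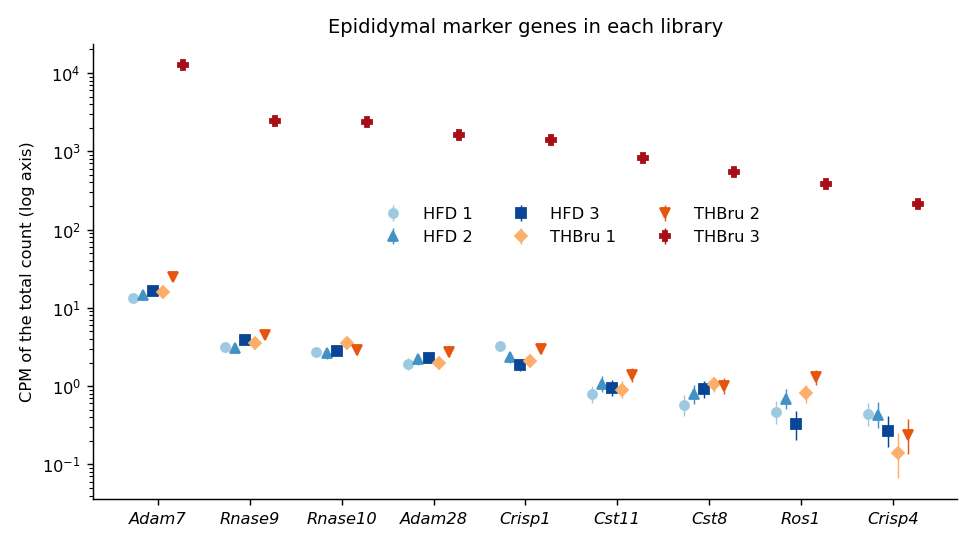
CPM of each gene in each of the 6 libraries on a log axis, with exact 95% Poisson intervals as bars. The crosses of THBru 3 run from 212 CPM for Crisp4 to 12757 CPM for Adam7, while the other 5 libraries lie between 0.139 and 24.98 CPM.

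Ros1 encodes the receptor tyrosine kinase of principal cells of the initial segment. It lies on chromosome 10 at 52045721 to 52195244 on the minus strand (ENSMUSG00000019893, GRCm38 coordinates as in the table). Its level was 0.468, 0.693 and 0.324 CPM in HFD 1 to 3 and 0.804, 1.30 and 381 CPM in THBru 1 to 3. The THBru values all lay above the HFD values, although the counts in THBru 1 and THBru 2 were only 58 and 89. THBru 3 was 770-fold above the HFD mean. Per length it was the lowest member in THBru 3, at 47.1 FPKM. Its coding neighbours within 150 kb besides Vgll2 (21 counts in THBru 3 and 0 in HFD) were Dcbld1 and Gopc, 2.07-fold and 3.50-fold above HFD in THBru 3.

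The other genes of the ROS1 pathway followed no single pattern. Nell2, the ligand from the testis, had 0 counts in the HFD libraries, 21 counts (0.291 CPM) in THBru 1, 8 counts (0.117 CPM) in THBru 2 and 33 counts (0.491 CPM) in THBru 3. The last is at least 36.1-fold above the limit of 3 counts over the HFD group. Gm1673, which encodes the NELL2 partner NICOL, stood at 0 to 0.390 CPM in HFD, 1.86 CPM in THBru 1 and 0.327 CPM in THBru 3. Ovch2, the secreted protease that ROS1 signalling switches on, stood at 1.27 to 1.63 CPM in HFD, 1.66 CPM in THBru 1, 1.70 CPM in THBru 2 and 1000 CPM in THBru 3. Of the PEA3-type transcription factor genes, Etv4 was at 0.909 CPM on average in HFD and 54.6 CPM in THBru 3, Etv5 at 29.5 and 433 CPM, and Etv1 at 6.32 and 43.0 CPM.

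Ptpn6, the phosphatase gene SHP-1 that restrains ROS1 and is also expressed in leukocytes, was at 48.5 CPM on average in HFD and 25.7 CPM in THBru 3. Dusp6, a feedback phosphatase of ERK signalling, was at 76.6 and 101 CPM. Ace, a peptidase gene with a high level in the male tract and in vessels, was at 152 CPM in HFD, 586 CPM in THBru 1 and 2007 CPM in THBru 3. Adam3, a sperm surface gene, was at 0.693 CPM in HFD against 2.65 CPM in THBru 3. In edgeR 0 of the 8 pathway genes tested besides Ros1 passed in either direction over all genes, and 4 (Etv1, Etv4, Ovch2 and Ace) had an unadjusted p under 0.05 and were higher in THBru, as were 13.9% of all genes. DESeq2 called 1, Ace, as higher, beside 10.3% of all genes, and gave 3 no adjusted p. limma called 0. The 8 genes' median log2 fold change was 2.32, against 0.08 over all genes tested. It lies between Etv5 (2.31), which was above HFD in THBru 3 alone, and Gm1673 (2.33), which was highest in THBru 1, and nothing is read from it.

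Adam7 and Adam28 encode membrane proteins of the ADAM family, which joins a metalloprotease and a disintegrin domain, and ADAM7 passes from the caput epithelium onto sperm. Adam7 (ENSMUSG00000022056) lies on chromosome 14 at 68497336 to 68533689 and Adam28 (ENSMUSG00000014725) at 68606027 to 68655842, both on the minus strand. Adam7 stood at 13.2, 14.4 and 16.6 CPM in HFD 1 to 3 and at 15.7, 24.98 and 12757 CPM in THBru 1 to 3. It was the gene of rank 5 by CPM in THBru 3. Adam28 stood at 1.92, 2.21 and 2.30 CPM in HFD and at 1.97, 2.74 and 1603 CPM in THBru. THBru 1 was within the HFD range for both genes, and THBru 2 was above it for both. THBru 3 was 867-fold above the HFD mean for Adam7 and 748-fold for Adam28.

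The gap between the pair is 72.3 kb, and the table holds 1 other coding gene there, Adamdec1, at 0.0624 CPM on average in HFD and 12.4 CPM in THBru 3. Among 28 other ADAM genes with any count, 5 were over 8-fold above HFD in THBru 3, as were 12.7% of all genes with any count. These 5, Adam2, Adam18, Adam20, Adam30 and Adam39, stood at 0.149 to 0.640 CPM there, on 10 to 43 counts each. The widely expressed Adam10 and Adam9 were the most abundant others there, at 237 and 97.6 CPM, with HFD means of 131 and 239 CPM. Adam15, the highest other ADAM gene in HFD, was at 323 CPM in HFD against 96.2 CPM in THBru 3.

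Crisp1 and Crisp4 encode cysteine-rich secretory proteins that bind maturing sperm, CRISP1 being best known from the corpus and cauda. Crisp1 (ENSMUSG00000025431) lies on chromosome 17 at 40293758 to 40319207 and Crisp4 (ENSMUSG00000025774) on chromosome 1 at 18115191 to 18145902, both on the minus strand. Crisp1 stood at 3.26, 2.34 and 1.88 CPM in HFD 1 to 3 and at 2.11, 2.97 and 1379 CPM in THBru 1 to 3. Both THBru 1 and THBru 2 were within its HFD range. Crisp4 stood at 0.442, 0.433 and 0.270 CPM in HFD and at 0.139, 0.234 and 212 CPM in THBru, so THBru 1 and THBru 2 were below every HFD library. These low levels rest on 10 to 34 counts a library. THBru 3 was 553-fold above the HFD mean for Crisp1 and 556-fold for Crisp4.

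Beside Crisp4, at gaps of 90.6 and 105 kb, lie the defensin genes Defb18 and Defb41, which were at 24.2 and 93.8 CPM in THBru 3 and at 0.0596 and 0.0598 CPM on average in HFD. Crisp2, the testis member of the family, was at 0.665 CPM in HFD against 9.24 CPM in THBru 3. Crisp3, 51.5 kb from Crisp1, had 0 counts in HFD and 14 in THBru 3, at least 15.3-fold above the limit. The more distant relatives Crispld2 and Crispld1 were at 69.6 and 1.47 CPM in HFD and at 45.2 and 5.68 CPM in THBru 3.

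Cst8 and Cst11 encode cystatins of the reproductive CRES group, relatives of the cysteine protease inhibitors, made in the proximal epididymis. The pair sits 27.3 kb apart on chromosome 2, Cst8 (ENSMUSG00000027442, plus strand) from 148798785 to 148805595 and Cst11 (ENSMUSG00000036958, minus strand) from 148768609 to 148771497. Cst8 stood at 0.571, 0.794 and 0.919 CPM in HFD 1 to 3 and at 1.05, 1.01 and 541 CPM in THBru 1 to 3. Its THBru values all lay above its HFD values. Cst11 stood at 0.792, 1.07 and 0.946 CPM in HFD and at 0.902, 1.39 and 825 CPM in THBru. THBru 1 was within its HFD range and THBru 2 above it. The folds of THBru 3 over the HFD mean were 711 for Cst8 and 882 for Cst11.

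Within 150 kb of the pair, 6 of the 10 coding genes other than Cst8 and Cst11 were over 8-fold above HFD in THBru 3, all of them cystatin genes: Cstdc2 (1570 CPM), Cst12 (119 CPM), Cst13 (1.46 CPM), Cst9 (0.967 CPM), Cstdc1 (0.298 CPM) and Cstl1 (0.164 CPM). That fold was reached by 12.7% of all genes with any count. Cstdc1 and Cstl1 had only 20 and 11 counts there. Cst3, the ubiquitous cystatin C gene at the edge of the cluster, was at 387 CPM on average in HFD and 215 CPM in THBru 3. The 3 neighbours outside the family, Gzf1, Napb and Nxt1, were at 79.4, 4.08 and 4.94 CPM in HFD and at 47.3, 6.25 and 4.67 CPM in THBru 3.

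Rnase9 and Rnase10 encode secreted proteins of the RNase A family that the table describes as non-active. The pair sits 27.7 kb apart on chromosome 14, Rnase9 (ENSMUSG00000052382, minus strand) from 51038459 to 51041869 and Rnase10 (ENSMUSG00000021872, plus strand) from 51007751 to 51010758. Rnase9 stood at 3.16, 3.07 and 3.93 CPM in HFD 1 to 3 and at 3.54, 4.48 and 2441 CPM in THBru 1 to 3. Rnase10 stood at 2.75, 2.61 and 2.84 CPM in HFD and at 3.56, 2.90 and 2346 CPM in THBru. For Rnase9 THBru 1 was within the HFD range and THBru 2 above it. For Rnase10 both were above it, THBru 2 by less than the counting interval of either value. The folds of THBru 3 over the HFD mean were 720 for Rnase9 and 858 for Rnase10.

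Rnase12 and Rnase11, next to Rnase9, were at 250 and 8.50 CPM in THBru 3. Rnase12 averaged 0.360 CPM in HFD, and Rnase11 had 0 counts there, so that its level was at least 624-fold above the limit. The epididymal secretory gene Eddm3b, 72.6 kb from Rnase9, was at 0.430 CPM in HFD, 3.28 CPM in THBru 2 and 209 CPM in THBru 3. Rnase4, in the same cluster but made in many tissues, was at 185 CPM in HFD against 54.2 CPM in THBru 3, and Ang at 5.73 and 3.54 CPM. Rnase13 was at 0.708 and 496 CPM, and Ear2, also of the RNase A family, at 32.4 and 0.774 CPM. In the RNase A family 3 of 15 other genes with any count were over 8-fold above HFD in THBru 3, and 7 of 15 in the cystatin family. The share over all genes with any count was 12.7%. Of the 7 cystatin genes, Csta1, Cstl1 and Cstdc1 had only 10, 11 and 20 counts in THBru 3.

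**Figure D2:**
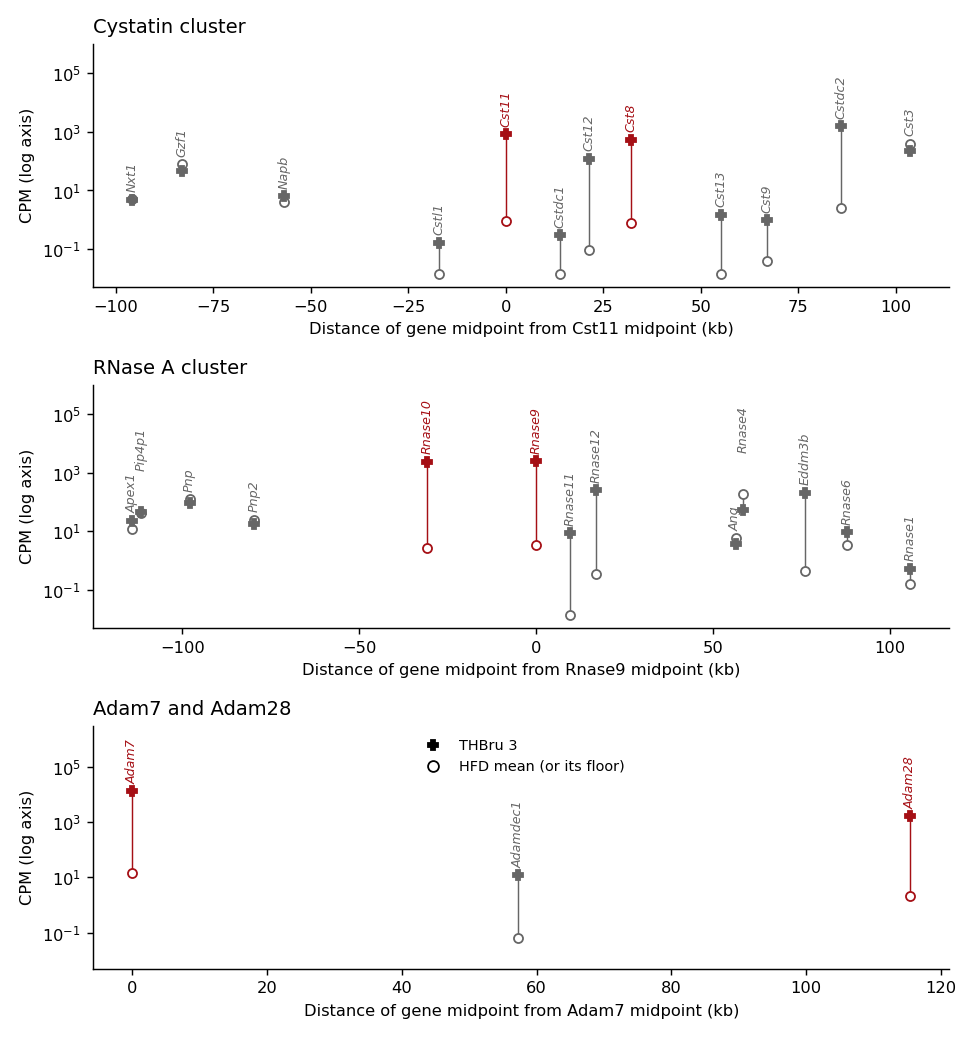
HFD mean (open circles, set to the limit of 3 counts over the group where lower) and THBru 3 level (crosses) in CPM on a log axis for coding genes around Cst11, Rnase9 and Adam7, by distance between gene midpoints in kb; members are red. Cst3 lies at 387 CPM in HFD against 215 CPM in THBru 3 beside Cstdc2 at 1570 CPM, and Rnase4 at 185 and 54.2 CPM beside Rnase12 at 250 CPM.

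Compared per length in THBru 3, the order of the members was Adam7 (2834 FPKM), Rnase9 (1974 FPKM), Rnase10 (1355 FPKM), Cst11 (1291 FPKM), Crisp1 (937 FPKM), Cst8 (611 FPKM), Adam28 (168 FPKM), Crisp4 (74.6 FPKM) and Ros1 (47.1 FPKM). With a single library at these levels, neighbours in this order have no replicate spread to be set against. Markers of more than 1 region of the epididymis were high together. A region was assigned to 7 of the 9 members and to neither Crisp4 nor Rnase9. The 5 initial segment members (Ros1, Rnase10, Cst8, Cst11 and Adam28) had a median of 611 FPKM, and the other 4 initial segment markers (Ovch2, Etv4, Etv5 and Adgrg2) a median of 264 FPKM. Adgrg2 was also at 545 CPM in THBru 2 and at 30.7 to 142 CPM in HFD, beside 2338 CPM in THBru 3.

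The caput was represented by Adam7, and the 9 other caput markers had a median of 1906 FPKM, led by Gpx5, a secreted glutathione peroxidase gene (14028 FPKM), and the lipocalin gene Lcn5 (3701 FPKM). The lowest were Rhox5 (2.07 FPKM, 110 counts) and Spink13 (4.12 FPKM, 296 counts), both with 0 counts in HFD. Crisp1 stood for the corpus and cauda, where Spint4 was at 725 FPKM, Cd52 at 43.6 FPKM and the vas deferens gene Akr1b7 at 3.90 FPKM. Over 8-fold above HFD in THBru 3 were 4 of 4 other initial segment markers, 9 of 9 other caput markers and, among the other 3 distal markers, 1 of 3, Spint4. The share over the genes tested was 8.66%. Rhox5 and Spink13 passed at low levels, against 0 in HFD. Cd52, which lymphocytes also express, was at 3.29 to 14.5 CPM in HFD, 53.9 CPM in THBru 3 and 264 CPM in THBru 1. Sperm and spermatid markers, 8 in all, summed to 51.9 CPM in THBru 3 and to 0.581 to 2.41 CPM elsewhere, with Odf1 at 15.1 CPM and Prm2 at 14.0 CPM.

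**Figure D3:**
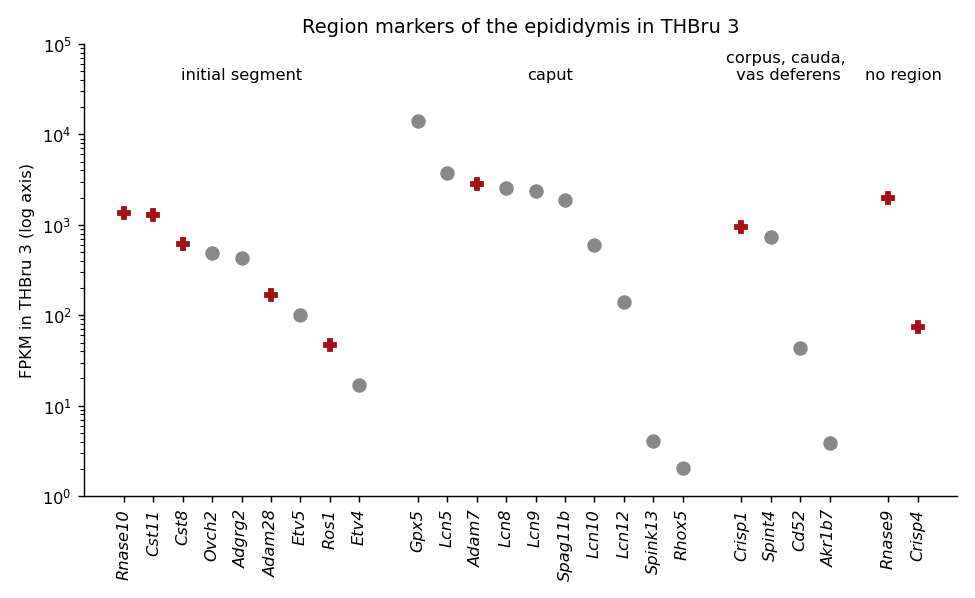
FPKM in THBru 3 on a log axis for markers of the initial segment, the caput and the distal duct; red crosses are the 9 members and grey circles other markers. Rnase9 and Crisp4, which were assigned to no region, stand at the right. The initial segment members span 47.1 to 1355 FPKM, and Gpx5 is the highest caput marker at 14028 FPKM.

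The low levels in the other libraries tracked the level in THBru 3. Across the 9 genes, log2 CPM in HFD 1, HFD 2 and HFD 3 correlated with log2 CPM in THBru 3 at Pearson r = 0.966, 0.993 and 0.988, in THBru 1 at 0.965 and in THBru 2 at 0.966. These are descriptions over 9 genes that share their libraries. Expressed as a share of the THBru 3 level, the summed members stood at 0.118, 0.123 and 0.133% in HFD 1 to 3, 0.133% in THBru 1 and 0.187% in THBru 2.

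Single members departed from these shares. Adam7 was at 0.196% of its THBru 3 level in THBru 2 (exact 95% Poisson interval 0.187 to 0.205), while Rnase10 was at 0.123% there (0.107 to 0.142). Ros1 in THBru 2 was the highest share of any member, 0.342% (0.275 to 0.421). Crisp1 was at 0.236% in HFD 1 (0.208 to 0.267), above its 0.136% in HFD 3 (0.114 to 0.161). The lowest share was that of Crisp4 in THBru 1, 0.0653% (0.0313 to 0.120). The intervals cover counting error in the lower library only.

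The seminal vesicle markers, high in THBru 1, showed shares of a like size in the other libraries: in sum 0.125, 0.132 and 0.149% of their THBru 1 level in HFD 1 to 3, 0.186% in THBru 2 and 0.211% in THBru 3. The kidney markers, high in THBru 2, were less even. They summed to 0.697, 4.44 and 0.257% of their THBru 2 level in HFD 1 to 3, 0.169% in THBru 1 and 10.5% in THBru 3. Lrp2 alone gave 44.8 CPM of the sum in HFD 2 and 98.9 CPM in THBru 3. Without it the other 5 kidney markers stood at 0.104 to 0.175% of their THBru 2 level in HFD and THBru 1, and at 1.32% in THBru 3. Single kidney markers varied: the median share, Lrp2 included, was 0.0721, 0 and 0.258% in HFD 1 to 3. Slc12a1 had 0 counts in all HFD libraries and in THBru 1. With only 1527 counts in THBru 2, its counts of 0 cannot be told from a share of 0.104 to 0.175%. Whether the low levels of the epididymal genes outside THBru 3 came from the tissue sampled or arose between the libraries was not tested.

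**Figure D4:**
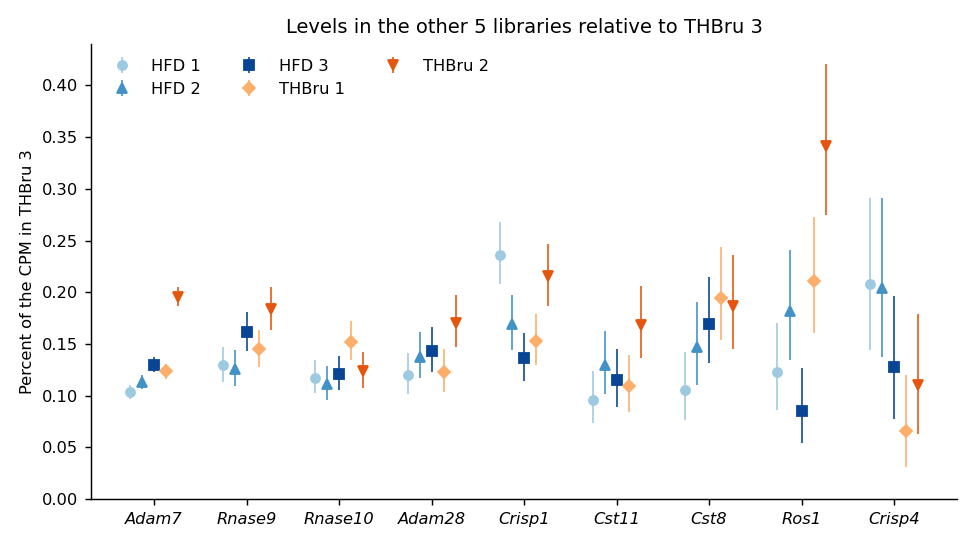
Level of each gene in the other 5 libraries as a percentage of its CPM in THBru 3, with exact 95% Poisson intervals of the lower count. Most points lie between 0.1 and 0.2%; Ros1 in THBru 2 reaches 0.342% and Crisp4 in THBru 1 lies at 0.0653%.

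Against HFD, THBru 1 and THBru 2 gave different pictures by scaling. In CPM of the total count, 3 of 9 members (Cst8, Ros1 and Rnase10) were above every HFD library in THBru 1, beside 15.6% of genes tested, and 7 of 9 in THBru 2, beside 45.4% of genes. The same 3 genes had no overlap between the groups, beside 10.4% of genes, and with TMM scaling 5 of 9 had none, beside 16.7% of genes. With TMM scaling (factor 0.632 for THBru 1 and 1.02 to 1.19 for the others), 8 of 9 were above every HFD library in THBru 1, beside 39.1% of genes, and 5 of 9 in THBru 2, beside 32.8%. These shares follow the choice of members on the same contrast and are not read further.

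The genes whose pattern over the 6 libraries lay nearest to the mean pattern of the members were Defb20, Teddm1a, Ovch2, Slc38a5, Spint4 and Gpx5. The candidates were 14026 other genes with at least 1 CPM on average, without predicted genes, pseudogenes and genes lacking a symbol. Defb20 and Spint4 reached that average only through THBru 3, as did Defb30, Spink2 and Defb23, named below. The measure was the Euclidean distance between centred log2(CPM + 0.1) profiles, which was 0.25 for Defb20 and 0.33 for Gpx5. Defb20, a beta-defensin gene, was at 0.733 CPM on average in HFD and 553 CPM in THBru 3, and Slc38a5, an amino acid transporter gene, at 4.92 and 3542 CPM. Among the members Adam28 was nearest to the mean pattern (0.24) and Crisp4 and Ros1 farthest (1.15 and 1.06).

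Each member's own nearest gene was Lcn5 for Adam7 (distance 0.23), Teddm1a for Adam28 (0.17) and Cst11 (0.23), Defb30 for Rnase9 (0.19), Ly6g5b for Cst8 (0.36), Spag11b for Rnase10 (0.40), Defb20 for Crisp1 (0.46), the acrosin-inhibitor gene Spink2 for Crisp4 (0.60) and Defb23 for Ros1 (0.71). The distances for Crisp4 and Ros1 were the largest. In the libraries other than THBru 3, Crisp4 had 10 to 34 counts and Ros1 24 to 89. Cst8 had 44 to 76 counts there and Cst11 61 to 95, and their nearest genes lay closer. Whether low counts widened the distances was not tested. Counts of Spag11b and Teddm1a, which have close paralogues, are uncertain.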

How the data were processed

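Per the labels' protocols, poly(A) RNA was made into dUTP-marked libraries and sequenced as paired reads. The deposited table held whole-number counts per gene, not normalized, and FPKM values calculated by the authors, named so per the file headers. The tools listed, without roles, per the submitters' processing notes include edgeR, DESeq2, StringTie 2.1.6, HISAT2 2.2.1 and cutadapt 1.9. The strand setting, the counting program and the genome build were not given in the sources used here. GENCODE M21 holds 99.7% of the gene IDs, and gives 91.0% of those the same coordinates, so positions are read as GRCm38.

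Rows of 1 symbol were summed (32819 rows, 32759 genes). Testing covered 16140 genes (mean FPKM over the 6 libraries of 0.5 or more) and used edgeR 4.0.16 (quasi-likelihood, robust, TMM, library size the total count, two-sided, Benjamini-Hochberg, 0.05) in R 4.3.3, with DESeq2 1.42.0 and limma 3.58.1 as alternatives. All 9 members passed the filter, but Adam28, Crisp4 and Ros1 only through THBru 3. Only the edgeR step was tested on simulated counts, in which changed genes shifted alike in all 3 treated libraries. That setting does not cover a signal carried by 1 library, as here. CPM values use total counts except where TMM is named, with exact Poisson intervals, or Wilson intervals for shares, at 95%; both cover counting error only.

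The 9 members and the lists of pathway, family and region genes were chosen with earlier results of these data known. Named genes were the members, all genes of the ROS1 list, the nearest 6 genes and each member's nearest gene by log2(CPM + 0.1) profile. The most abundant others of each family were also named, with some genes of the marker lists and neighbours within 150 kb. The neighbours and the family genes over 8-fold were chosen after their values were seen.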

Additional observations from a re-analysis of the deposited data

How the results depend on the processing

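The edgeR test called 19 of 16140 genes with all 6 libraries. It called 53 on total counts, and 0 to 1552 with 1 library left out (0 without HFD 1, HFD 2 or HFD 3, 79 without THBru 1, 1552 without THBru 2, 23 without THBru 3), while DESeq2 called 2773 and limma 73. DESeq2 size factors in edgeR and both other filters gave 19 to 28. None of the 9 members was called under any of these settings, and DESeq2 gave them no adjusted p. Their fitted log2 fold changes were 7.45 to 8.13, 2.197 to 3.44 in limma on log2(FPKM + 0.5), and 7.25 to 8.71 without any one library other than THBru 3. Without THBru 3 they were −0.79 to 1.33, from Crisp4 (−0.79, reversed, against up to 8.04 with another library left out) to Ros1 (1.33), so the members' higher level in THBru rests on that library. The summed level over the HFD mean was 762-fold in THBru 3 with TMM scaling and 770-fold as FPKM. With TMM scaling it was 1.78-fold in THBru 1 and 1.33-fold in THBru 2, and as FPKM 1.39-fold in THBru 2.

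Deviations of same-numbered libraries from their group means correlated at 0.0298, −0.00775 and −0.0560. Those of unlike-numbered libraries correlated at −0.0413 to 0.0453. With 3 libraries a group, these values do not settle whether the replicate numbers pair the libraries. With the replicate number as a block edgeR called 0 genes, with 2712 at an unadjusted p under 0.05, and the members' log2 fold changes were 0.95 to 2.86. The cause was not tested.

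With 1 library carrying the transcripts, replicate error for their levels in it cannot be given, and the members at under 100 counts elsewhere (Crisp4, Cst8, Cst11 and Ros1) have wide counting intervals.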

Other observations

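Markers of basal cells, of narrow and clear cells and of efferent duct and ciliated cells were also present in THBru 3. Some of them were higher in THBru 2. Of 5 basal cell markers 4 were over 8-fold above HFD there, as were 8.66% of the genes tested. Krt5 stood at 59.8 CPM and Trp63, a basal cell transcription factor gene, at 63.0 CPM. The remaining basal marker, the integrin gene Itga6, was at 346 CPM on average in HFD and 81.4 CPM in THBru 3. The sum of the 5 in THBru 3 was 0.762 of its HFD mean. In THBru 1, 3 of the 5 were over 8-fold above HFD, as were 3.3% of the genes tested. THBru 1 held Krt5 at 15.7 CPM and Trp63 at 13.04 CPM. Of 6 narrow and clear cell markers 4 were over 8-fold above HFD in THBru 3 and 5 in THBru 2. That fold was reached by 8.66% of the genes tested in THBru 3 and by 4.86% in THBru 2. Foxi1, the transcription factor gene of proton-secreting cells, was at 0.126 CPM on average in HFD, 1.61 CPM in THBru 2 and 76.4 CPM in THBru 3, whereas Slc4a9 was highest in THBru 2 (9.09 CPM) and at 0.0893 CPM in THBru 3. Atp6v0d2, a proton pump subunit gene, was at 23.5 to 233 CPM in HFD and 88.2 CPM in THBru 3. Efferent duct and ciliated cell markers, 5 in all, summed to 275 CPM in THBru 2 and 73.8 CPM in THBru 3. Their sum was 2.64 to 3.92 CPM in HFD and 4.79 CPM in THBru 1. Macrophage markers, 6 in all, summed to 1923 to 4312 CPM in HFD, 336 CPM in THBru 1, 1083 CPM in THBru 2 and 206 CPM in THBru 3.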
